A study of Homo sapiens with 8 samples.

Results

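The genes described here are 39 enzymes that add methyl groups to lysines of histones or take them off. They comprise 25 methyltransferases and related SET domain proteins and 14 demethylases, and their m6A peaks were taken by gene name, older names included, from 2 deposited peak lists. Of the 39 genes, 35 had a peak, out of 10577 genes with a peak in either list. They held 104 of the 15730 peaks of control cells and 98 of the 13219 peaks of DF2 siRNA cells. No peak was listed for EZH2, EHMT2, KDM1A or KDM5C under any RefSeq name.

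m6A, a methyl mark on adenosines of mRNA, had been mapped in U2OS, an established human osteosarcoma line, without or with siRNA against DF2 (YTHDF2). Cytoplasmic RNA was fragmented to about 100 nt and fragments with m6A were pulled down with an antibody, with 2 input and 2 m6A libraries for each condition. The labels number the DF2 siRNA libraries without saying whether 2 siRNAs or 2 cultures are meant. Each peak list belongs to both m6A libraries of a condition, so the 2 conditions were compared without a replicate check and no p-values are given.

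Histone lysine methyltransferases carry, with the exception of DOT1L, a SET domain that moves a methyl group from S-adenosylmethionine to the lysine. Methylation of H3K4, H3K36 and H3K79 is found at active promoters and along transcribed genes, whereas that of H3K9 and H3K27 is linked to silencing. KDM1A is a flavin-dependent amine oxidase, and the other demethylases are Jumonji enzymes that need iron and 2-oxoglutarate. In mRNA, m6A is common near stop codons and in long internal exons, in a motif with the core GGAC. YTHDF2 binds m6A in the cytoplasm and recruits the machinery that removes the poly(A) tail.

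Each peak has a fold enrichment and a score given by the authors, and the percentile of a peak is its place by fold enrichment among all peaks of its own list, with 100 as the top. Percentiles from lists of different lengths show no change in a gene, so they are set side by side only. Library depth is unknown. YTHDF2 itself had a peak at fold enrichment 124 (percentile 97.9) in the control list and 52.3 (percentile 86.7) in the DF2 siRNA list. These values do not measure its mRNA, so the knockdown was not checked, and peak lists give no expression levels by which to check the cell line.

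Most of these enzymes were marked in both conditions, often at several places in the transcript. A peak in both lists was found for 33 of the 35 genes, 94.3% (95% exact binomial interval 80.8 to 99.3%), against 75.2% of all genes with a peak. EZH1 had a peak in the control list only, which held for 19.1% of all genes, and KDM4C in the DF2 siRNA list only, against 5.73% of all genes. Seen from each list, 33 of 34 genes with a control peak also had a DF2 siRNA peak, 97.1% (84.7 to 99.9%), against 79.7% of all genes, and 33 of 34 the reverse, against 92.9%. Intervals cover counting error only and treat genes or peaks as independent, although peaks of a gene share its transcript.

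Many of these genes had several peaks. In the control list, 26 of 34 genes had at least 2 peaks, 76.5% (58.8 to 89.3%), against 38.9% of all genes, and 11 had at least 4, 32.4% (17.4 to 50.5%), against 3.85%. The DF2 siRNA list gave 23 of 34, 67.6% (49.5 to 82.6%), against 37.4%, and again 11 of 34 with at least 4, against 3.39%. Mean peaks per gene were 3.06 in control and 2.88 in DF2 siRNA, compared with 1.58 and 1.55 over all genes. These numbers are not corrected for transcript length, and the genes were not tested as a group. Numbers of peaks moved little between the lists, as the plot of peaks per gene shows, and KDM5B was the only member whose number differed by 2, with 3 peaks in control and 1 in DF2 siRNA.

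**Figure D1:**
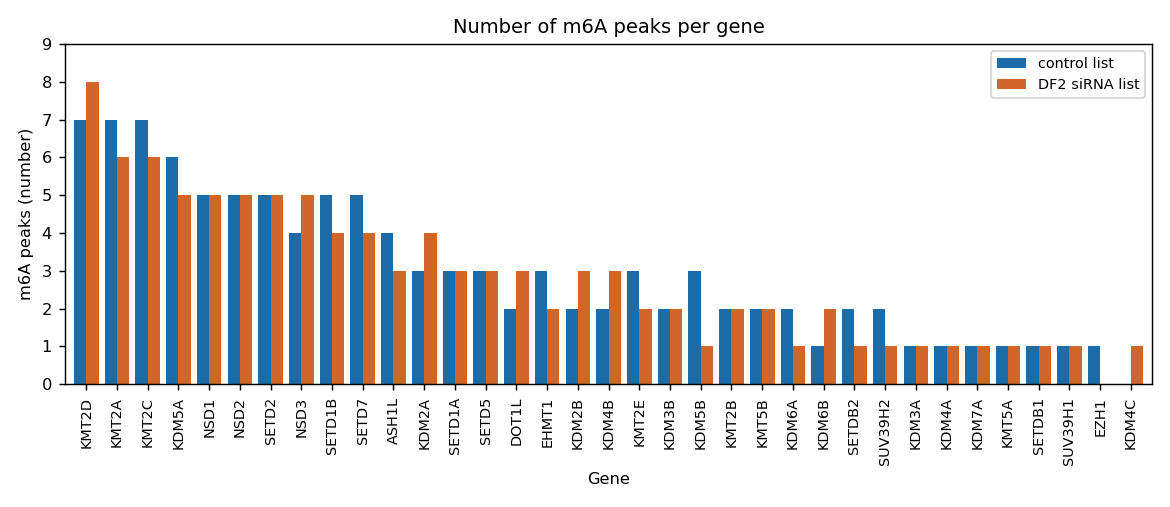
Number of m6A peaks (y axis) in the control and the DF2 siRNA list for each of the 35 genes with a peak. Genes are along the x axis, ordered by their peaks in both lists together. KMT2A, KMT2C and KMT2D each have 6 to 8 peaks in both lists, and the 4 genes without a listed peak are not drawn.

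The peaks of these genes also stood high within their lists. Their median fold enrichment was 34.9 in control (5.64 to 151), where the median of all peaks was 20.8. In DF2 siRNA it was 25.6 (4.35 to 156), where the median of all peaks was 17.7. Taking the best peak of each gene, the one with the highest fold enrichment, the median percentile was 87.0 in control, against 61.6 over all genes, and 80.6 in DF2 siRNA, against 60.5. A gene with more peaks has more chances of a high best peak, and its part in these medians was not tested. For 12 of the 33 genes with a peak in both lists, 36.4% (20.4 to 54.9%), the best fold enrichment was the higher in the DF2 siRNA list, against 29.7% of all such genes.

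**Figure D2:**
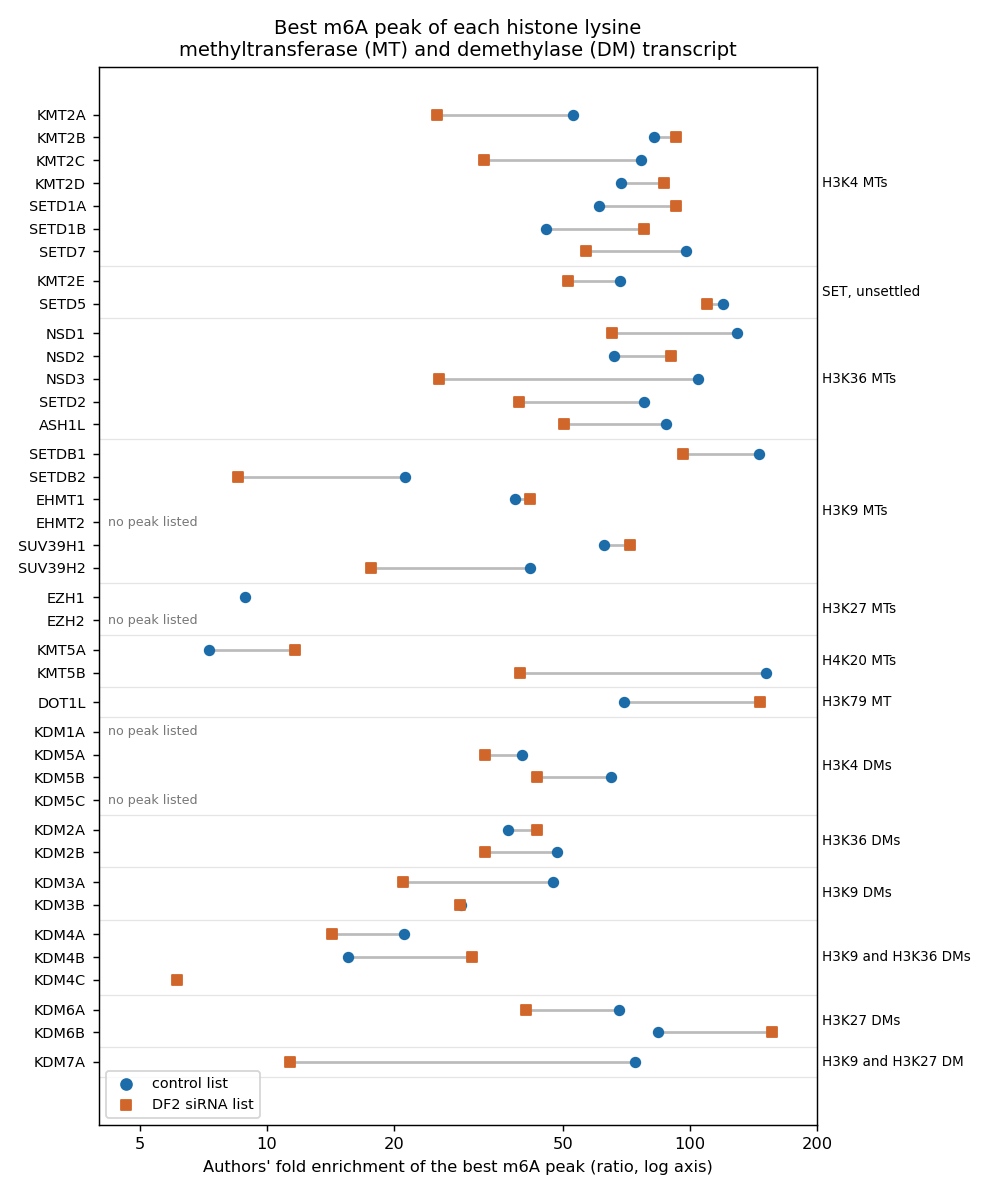
Fold enrichment of the best m6A peak of each gene (log axis), with a point for the control and a point for the DF2 siRNA list and genes grouped by residue. KMT5B leads the control list at 151 and KDM6B the DF2 siRNA list at 156, whereas EZH1 and KDM4C have a point in 1 list only.

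Short stretches of reference sequence can be shown for peaks that reach a gene's start, since sequence was at hand only for the 300 bases around each RefSeq start. Windows were found for 36 of the 39 genes, 10 genes had a peak reaching into theirs, and in 3 of these the shared bases held GGAC on the transcript strand. In capitals is the GGAC core, and sequences are RefSeq, GRCh38.p14, 5′ to 3′ on the strand of the gene. They are given to show what lies under the KDM4C peak found only with DF2 siRNA under the 5′-most peak of SETD1A, and under a SETD7 peak that reaches the gene's start.
KDM4C, chr9:6757799-6757826, plus strand: cctgtgtccaaaGGACaagaagatgcgc
SETD1A, chr16:30957565-30957592, plus strand: agtgcaaggaagGGACggggaagagaag
SETD7, chr4:139556327-139556354, minus strand: cgaagggaggggGGACgacggctgctgc
All 3 sites lie upstream of the start on which the window is set. The SETD1A and SETD7 sites lie outside the RefSeq gene, and the KDM4C site lies inside it. Of all 35116 windows, 66.3% hold GGAC somewhere in their 300 bases, so a match is a description and not an m6A site. The bases that a peak shares with a window are mostly fewer, so this share is no background for the 3 of 10 genes.

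All 7 H3K4 methyltransferases were marked in both conditions, with 36 control and 33 DF2 siRNA peaks and median best fold enrichments of 68.6 and 78.0. Without peaks outside the RefSeq genes, of SETD1A and SETD7, these medians were 52.9 and 78.0. KMT2A and KMT2B are the MLL1-type enzymes that work with menin, KMT2C and KMT2D the large enzymes that methylate H3K4 at enhancers, and SETD1A and SETD1B the catalytic subunits of the SET1 complexes at promoters.

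KMT2A (ENSG00000118058) had 7 control and 6 DF2 siRNA peaks, none with a 5′ UTR label. From 5′ to 3′ the control peaks had fold enrichments of 9.14, 11.2, 14.2, 37.8, 52.9, 23.6 and 12.4, and the DF2 siRNA peaks 12.3, 22.3, 25.2, 11.3, 24.3 and 9.22. Both series were highest in the same coding stretch. There the control peak was an unbroken run of 2800 nt (chromosome 11, 118503746 to 118506545, score 1108), the longest among the members. The DF2 siRNA list had in its place a run of 1800 nt (118503946 to 118505745, score 124) and one of 400 nt (118506146 to 118506545, score 49).

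KMT2B (ENSG00000272333) carried 2 peaks in each list, both labelled coding only. Towards the 5′ end the fold enrichment was 82.1 in control and 85.2 in DF2 siRNA, and towards the 3′ end 38.1 and 92.5. The order of the peaks was thus turned: the 5′ peak was the higher in control and the 3′ peak in DF2 siRNA. The 3′ peak is the same interval of 800 nt in both lists (chromosome 19, 35732350 to 35733149), and the 5′ peak has 800 nt in control and 1200 nt in DF2 siRNA.

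KMT2C (ENSG00000055609) had 7 control peaks, at 55.2, 37.0, 76.5, 12.3, 39.7, 50.02 and 15.4 from 5′ to 3′, and 6 DF2 siRNA peaks, at 32.7, 28.3, 22.8, 25.7, 28.4 and 15.8. The DF2 siRNA peaks lay closer to each other in height, and the control peak at 12.3 had no counterpart. KMT2D (ENSG00000167548) had the most DF2 siRNA peaks, 8, at 18.2, 29.5, 46.2, 10.1, 86.9, 62.2, 62.1 and 79.8, while its 7 control peaks stood at 55.1, 17.5, 56.8, 19.2, 36.5, 68.6 and 34.99. In the control list the 5′-most KMT2D peak was among the higher ones, and in the DF2 siRNA list the 4 peaks nearest the 3′ end were all higher than those before them.

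In KMT2D, a coding run of 1400 nt (chromosome 12, 49037561 to 49038960) was the same interval in both lists, at 56.8 (score 1968) in control and 86.9 (score 1170) in DF2 siRNA. Downstream, a coding peak of 1600 nt and the peak after it in the control list corresponded to 1 peak of 2741 nt in the DF2 siRNA list (49031012 to 49033952). Within the KMT2 family the percentiles of the best peak were 81.0 and 64.0 for KMT2A, 91.9 and 96.4 for KMT2B, 90.6 and 73.4 for KMT2C, and 88.1 and 95.7 for KMT2D, control before DF2 siRNA. KMT2B and KMT2D thus led the family in the DF2 siRNA list, and KMT2B and KMT2C in the control list.

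**Figure D3:**
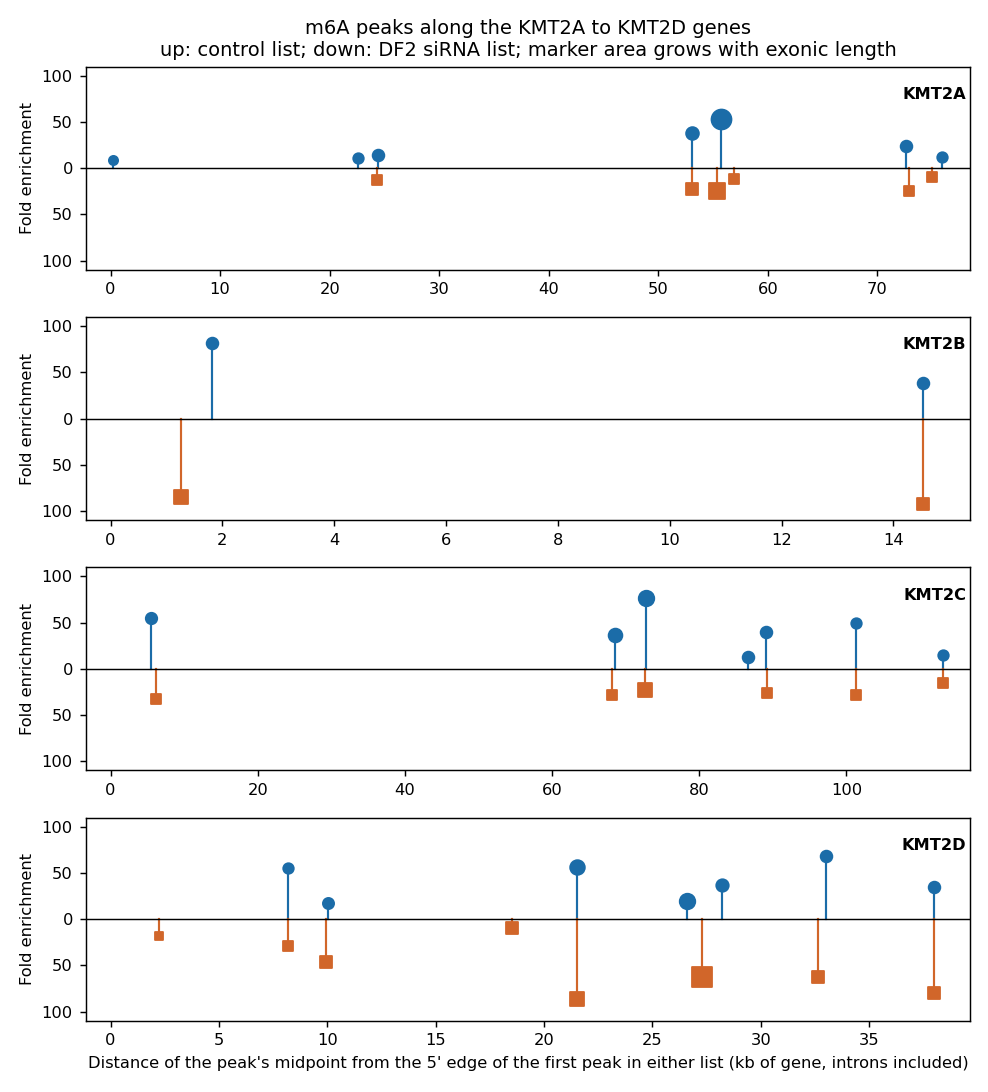
Fold enrichment of each m6A peak of KMT2A, KMT2B, KMT2C and KMT2D, drawn upwards for the control and downwards for the DF2 siRNA list, against the distance of its midpoint from the 5′ edge of the first peak (kb of gene, introns included), with marker area growing with exonic length. KMT2D peaks near the 3′ end reach 79.8 in DF2 siRNA and KMT2A peaks at most 25.2.

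SETD1A (ENSG00000099381) had 3 peaks per list, with fold enrichments of 60.9, 40.7 and 38.5 in control and 18.6, 50.5 and 92.5 in DF2 siRNA, from 5′ to 3′. The values were in descending order along the gene in control and in ascending order in DF2 siRNA. The 5′ peak (chromosome 16, 30957294 to 30957693), which holds the site printed above, is labelled 5′ UTR by the authors, yet ends before the RefSeq gene, which starts at 30957754. Its scores were low, 150 and 35, and on the RefSeq gene alone the best peaks were 40.7 and 92.5.

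SETD1B (ENSG00000139718) had 5 control peaks at 40.4, 45.6, 25.8, 10.4 and 30.6, and 4 DF2 siRNA peaks at 67.3, 78.0, 16.8 and 16.4. The control peaks at 45.6 and 25.8 correspond to the 1 DF2 siRNA peak at 78.0 (chromosome 12, 121817819 to 121825361). Its best peak stood at percentile 76.6 in control and at 94.4 in DF2 siRNA. It was the lowest of the group in control when all peaks are counted, and SETD1A, at 40.7, when peaks outside the RefSeq gene are left out.

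SETD7 (ENSG00000145391), which places a single methyl group on H3K4 and also acts on non-histone proteins, had a best peak of 98.1 in control and one of 56.6 in DF2 siRNA. Both of these peaks, and a further peak in each list, lie upstream of the RefSeq gene, which ends at 139556219 on the minus strand of chromosome 4. The DF2 siRNA peak (139597289 to 139598088) falls within an uncharacterised RefSeq non-coding gene on the same strand, LOC105377622 (139596608 to 139606703), which the control peak also overlaps. Whether these reads come from SETD7 was not tested. On the RefSeq gene itself the best peaks stood at 48.5 (score 916) and 45.5 (score 100). Of these, the DF2 siRNA peak reaches beyond the gene. SETD7 was the highest of the group in control with the upstream peaks, and KMT2B, at 82.1, without them.

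Of the SET proteins whose own histone activity is not settled, SETD5 (ENSG00000168137) had the highest scores of all the enzymes. Its stop codon peak (chromosome 3, 9475170 to 9476586, 1200 nt of exonic sequence) was the same interval in both lists, at 120 (score 6417) in control and 110 (score 2553) in DF2 siRNA. This peak stood at percentiles 97.6 and 97.9. KMT2E, the other member of this pair, had best peaks of 68.4 and 51.4 and a further weak control peak of 8.77 without a counterpart.

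The 5 H3K36 methyltransferases had 23 peaks in each list, and every one of them was marked in both, with median best fold enrichments of 87.9 in control and 50.3 in DF2 siRNA. NSD1, NSD2 and NSD3 form the family that dimethylates H3K36, SETD2 makes the trimethyl form during transcription, and ASH1L counteracts Polycomb silencing. NSD1 (ENSG00000165671) had 5 control peaks at 12.9, 129, 60.4, 123 and 51.4, and 5 DF2 siRNA peaks at 10.1, 43.5, 45.5, 65.4 and 45.6. The 2 control peaks above 100 were thus not matched by such a height in DF2 siRNA, where the same 5 places all had a peak.

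NSD3 (ENSG00000147548) stood at 104, 20.3, 28.2 and 17.0 in control and at 25.5, 17.5, 15.3, 9.58 and 10.2 in DF2 siRNA. Its best peak was thus at percentile 95.9 in control and 64.4 in DF2 siRNA. The 5′ control peak is the wider of the pair, so the values at 104 and 25.5 do not belong to the same interval. NSD2 (ENSG00000109685) went the other way, with best peaks of 66.3 (score 1829) and 89.99 (score 1187) over the same interval, and was the lowest of the group in control. SETD2 (ENSG00000181555) carried a coding run of 1400 nt in control (chromosome 3, 47122228 to 47123627, 70.1, score 1280) where the DF2 siRNA run was 600 nt (24.1, score 231). ASH1L had best peaks of 87.9 and 50.3.

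Fewer peaks fell on the H3K9 methyltransferases, 9 in control and 6 in DF2 siRNA over 5 of the 6 genes, with median best fold enrichments of 41.9 and 41.7. SETDB1 (ENSG00000143379), which silences retroelements with TRIM28, had 1 peak of 1400 nt, the same interval in both lists (chromosome 1, 150950608 to 150961317). It stood at 145 (score 2212, percentile 99.1) in control and at 96.0 (score 404, percentile 96.8) in DF2 siRNA. Its relative SETDB2 was lowest of the group, with 8.05 and 21.2 in control and 8.56 in DF2 siRNA.

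SUV39H1 and SUV39H2, which trimethylate H3K9 in heterochromatin, differed from each other. SUV39H1 (ENSG00000101945) had 1 peak in each list over the same interval, at 62.5 and 72.3. SUV39H2 (ENSG00000152455) had peaks at 9.58 and 41.9 in control and 1 peak at 17.6 in DF2 siRNA. EHMT1, the partner of EHMT2 in H3K9 dimethylation, had best peaks of 38.6 and 41.7, and EHMT2 had no listed peak.

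Of the H3K27 methyltransferases, the catalytic subunits of Polycomb repressive complex PRC2, only EZH1 (ENSG00000108799) had a peak, in control. It lay in the 3′ UTR (chromosome 17, 42700463 to 42700862) with a fold enrichment of 8.87, a score of 30 and a deposited −log10 p-value of 1.42, close to the 1.30 that is the lowest in the list. KMT5B, which makes H4K20 dimethylation, had the highest best peak of all the enzymes in control, 151 (score 864, percentile 99.2). It was labelled coding, stop codon and 3′ UTR. In DF2 siRNA the peak at this place stood at 39.7 (score 116, percentile 79.5), rank 19 of 34. The control peak is an unbroken run of 2000 nt (chromosome 11, 68157095 to 68159094) and the DF2 siRNA peak one of 1600 nt within it. KMT5A, which makes H4K20 monomethylation, had a weak stop codon peak of 7.29 in control and 11.7 in DF2 siRNA.

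DOT1L (ENSG00000104885), the H3K79 methyltransferase, stood at 69.9 (score 1979) and 57.8 (score 815) in control and at 9.36, 146 (score 2021) and 54.0 (score 453) in DF2 siRNA. The peak at 146 (chromosome 19, 2226201 to 2227904) was rank 2 among the 34 genes with a peak in that list, and the control peak at 69.9 rank 13. The DF2 siRNA peak holds 1200 nt of exonic sequence and the control peak 800 nt, so the intervals differ.

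Among the 14 demethylases, 11 had a peak in control and 12 in DF2 siRNA, with 24 and 25 peaks, and the median best fold enrichments were 47.4 and 31.6. The methyltransferases and SET proteins, 23 and 22 of 25 genes with 80 and 73 peaks, had medians of 68.6 and 54.0. Best peaks of both kinds of enzyme spread widely and overlapped, and the difference between them was not tested.

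KDM5A and KDM5B, which remove H3K4 trimethylation, were marked in both conditions, and KDM5C and the amine oxidase KDM1A had no listed peak. KDM5A had 6 control peaks from 11.0 to 40.1 and 5 DF2 siRNA peaks from 10.7 to 32.7. KDM5B (ENSG00000117139) had a stop codon peak, the same interval in both lists, at 65.1 in control and 43.4 in DF2 siRNA. Its 2 further control peaks, both coding and at 12.5, had scores of 318 and 385, the 2 highest scores among the 18 control peaks without a counterpart.

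KDM2A and KDM2B, CxxC proteins that remove H3K36 methylation, had 5 control and 7 DF2 siRNA peaks between them. KDM2A (ENSG00000173120) stood at 37.1, 9.59 and 24.2 in control and at 10.4, 43.4, 12.9 and 37.1 in DF2 siRNA. KDM2B had best peaks of 48.5 and 32.8. In the H3K9 demethylases KDM3A and KDM3B, the best peaks were 47.4 and 20.9 for KDM3A and 28.7 and 28.6 for KDM3B, so KDM3A was the higher in control and KDM3B in DF2 siRNA.

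The KDM4 enzymes, which act on H3K9 and H3K36, had low peaks as a group, with medians of 18.3 and 14.2. KDM4A stood at 21.1 and 14.2. KDM4B (ENSG00000127663) had peaks at 9.30 and 15.5 in control and at 8.53, 4.63 and 30.5 in DF2 siRNA. KDM4C (ENSG00000107077) had 1 peak, in DF2 siRNA, labelled 5′ UTR (chromosome 9, 6757641 to 6758040), which holds the first of the sites printed above. Its fold enrichment was 6.13, its score 11 and its deposited −log10 FDR 1.52, near the lower limit of 1.30. Thus both genes found in a single list rest on weak peaks.

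The H3K27 demethylase KDM6B (ENSG00000132510) held the highest best peak of the enzymes in DF2 siRNA. It was an unbroken coding run of 1000 nt, the same interval in both lists (chromosome 17, 7848555 to 7849554). This peak stood at 84.0 (score 1410, rank 8) in control and at 156 (score 1138, rank 1) in DF2 siRNA. A second KDM6B peak in the 5′ UTR, at 9.96, was in the DF2 siRNA list only. KDM6A, its X-linked relative, had best peaks of 68.1 and 41.0 over the same interval. KDM7A (ENSG00000006459), which acts on H3K9 and H3K27, stood at 74.0 in control (score 236, percentile 89.7, rank 12) and at 11.3 in DF2 siRNA (score 17, percentile 28.2, rank 32). Both KDM7A peaks have 600 nt of exonic sequence but overlap only in part, so the values do not belong to the same interval.

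By the authors' feature labels, the peaks of these genes carried the stop codon label at a share near that of all peaks, and a larger share was labelled coding only. The stop codon was the first label of 47 of 104 control peaks, 45.2% (35.4 to 55.3%), against 42.7% of all peaks, and of 43 of 98 DF2 siRNA peaks, 43.9% (33.9 to 54.3%), against 43.7%. Several peaks of a gene could carry this label, as 4 of 5 NSD1 and 4 of 7 KMT2C control peaks did. The label alone thus does not place a peak at the end of the gene's coding sequence. Coding sequence was the only label of 26 control peaks, 25% (17.0 to 34.4%), against 7.59% of all peaks, and of 24 DF2 siRNA peaks, 24.5% (16.4 to 34.2%), against 9.49%. KMT2D alone supplied 5 of them in each list. None of the members' peaks had non-coding RNA as its first label, although a peak of EHMT1 carried it beside others in both lists. The upper limit was 3.48% in control and 3.69% in DF2 siRNA, where all peaks gave 13.5% and 10%. As the members code for proteins and this label came last in the order, the contrast follows largely from the choice of genes. No peak of the members was without a label, against 2.4% and 1.86% of all peaks. A 5′ UTR label came first for 6 peaks in each list, 5.77% and 6.12%, against 7.43% and 7.53%, and a 3′ UTR label for 22 and 21, 21.2% and 21.4%, against 18.5% and 18%. Coding as the first label took 29 and 28 peaks, 27.9% and 28.6%, against 15.5% and 19%.

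Wide runs were about as frequent as over all peaks. An unbroken exonic run of at least 1000 nt occurred in 18 control peaks, 17.3% (10.6 to 26.0%), against 19.2% of all peaks, and in 16 DF2 siRNA peaks, 16.3% (9.63 to 25.2%), against 17.7%. Peaks in 1 unbroken run with coding as the only label numbered 11 in each list, 10.6% and 11.2%, against 3.74% and 5.49% of all peaks.

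Most peaks had a counterpart on the same strand in the other list. This held for 86 of 104 control peaks, 82.7% (74.0 to 89.4%), against 71.9% of all control peaks, and for 87 of 98 DF2 siRNA peaks, 88.8% (80.8 to 94.3%), against 87.5%. A peak that met 2 or more peaks of the other list was found 3 times in each, 3.49% and 3.45% of those with a counterpart, against 10.5% and 8.37%. In control these were in KMT2A, NSD3 and SETD7, and in DF2 siRNA in KMT2D, SETD1B and EHMT1. Peaks without a counterpart were weak: the 18 control ones, in 14 genes, had a median fold enrichment of 9.59 and a median score of 75, against 39.9 and 541 for those with one. The 11 DF2 siRNA ones, in 9 genes, had medians of 9.96 and 39, against 28.6 and 157. The highest without a counterpart was at 25.2 in control, in the 5′ UTR of SETD5, and at 18.2 in DF2 siRNA, at the 5′ end of KMT2D.

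Identical intervals allow the order of sites to be compared, since the same 4643 intervals can be ranked in each list. The enzymes had 42 of them, in 29 genes, which is 40.4% of their control and 42.9% of their DF2 siRNA peaks, against 29.5% and 35.1% of all peaks. Among these the rank of a site by fold enrichment moved by a median of 10.2 percentile points in either direction, and by 11.7 over all 4643. Spearman's rho between the lists was 0.695 over the 42 sites and 0.77 over all, given as a description of sites that share libraries.

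More than 20 points higher in DF2 siRNA were 5 of the 42 sites, 11.9% (3.98 to 25.6%), against 14.1% of all, and 5 were as much lower, against 14.4%. The stop codon site of KDM4B went from percentile 23.9 (fold enrichment 15.5) to 60.9 (30.5). That of KMT2D went from 58.2 (34.99) to 92.5 (79.8). The 3′ coding site of KMT2B went from 61.8 to 94.8, the last coding site of SETD1A from 62.3 to 94.8 and the first coding site of SETD1B from 64.6 to 88.8. Of these 5 sites, 4 were in H3K4 methyltransferases, which held 11 of the 42, a grouping seen after the values were known and not tested. Of the 11, 7 stood higher in DF2 siRNA and 4 lower: SETD1A by −40.4 points, KMT2D by −16.6, KMT2C by −14.9 and KMT2A by −14.6.

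Lower by more than 20 points were a 3′ UTR site of KMT5B, from 66.8 (43.4) to 18.8 (11.9), and the 5′ UTR site of SETD1A, from 79.7 (60.9) to 39.3 (18.6). A site of SUV39H2 went from 65.7 to 36.7 and one of KDM3A from 70.1 to 44.5. The NSD1 site at 129 in control, the next after its 5′-most, went from 97.7 to 74.9. The 3 identical sites of KMT2D moved by −16.6, 16.9 and 34.3 points. Those listed under SETD1A moved by −40.4 and 32.5, the first of them being the peak outside the RefSeq gene.

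**Figure D4:**
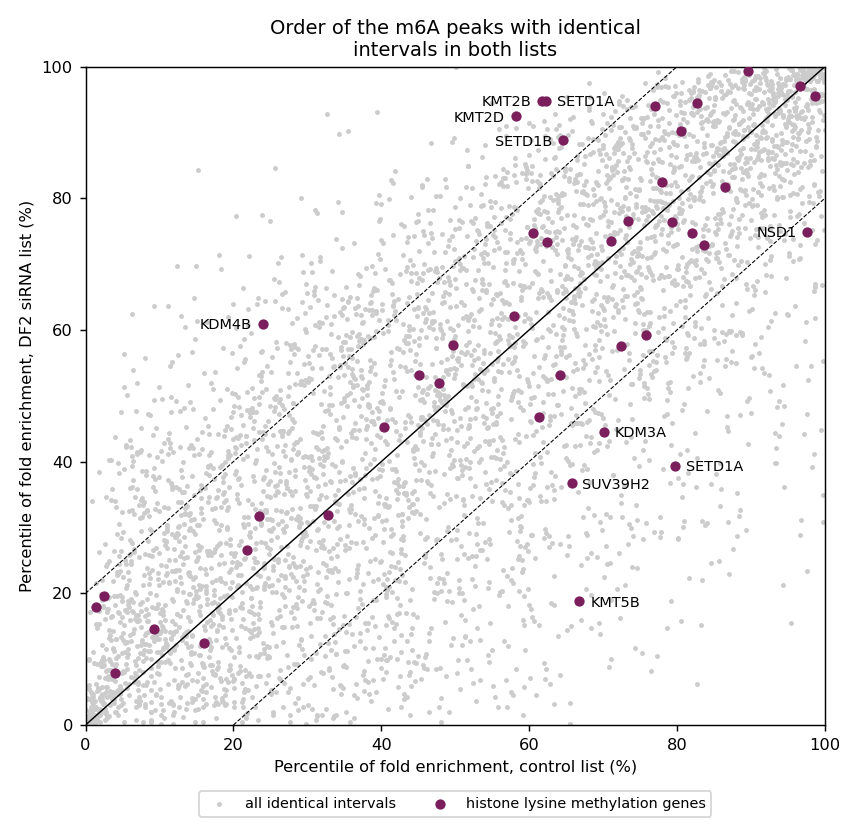
Percentile by fold enrichment of each identical interval among all 4643, in the control list (x axis) and the DF2 siRNA list (y axis), with the members' 42 intervals marked and those that moved by more than 20 points named. KDM4B, KMT2D, KMT2B, SETD1A and SETD1B sites lie above the diagonal band, and KMT5B, SETD1A, SUV39H2, KDM3A and NSD1 sites below it.

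Over all genes, identical intervals of different chromosomes differed in this shift. The median ran from −10.3 points on chromosome 13 to 5.50 on chromosome 19 and 6.08 on chromosome 22. It was 2.95 on chromosome 12, 2.52 on chromosome 16, 2.67 on chromosome 11 and −2.70 on chromosome 5. The part of this in the sites of the enzymes was not tested.

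The other genes of histone modification, 108 in 5 lists, had a peak in both lists for 62, in control only for 10, in DF2 siRNA only for 3 and in neither for 33. Of 20 further lysine methyltransferases, 8 were marked in both and 2 in control only, SETD9 at 9.50 and PRDM10 at 10.5. The highest were SMYD4, at 71.1 in control and 40.9 in DF2 siRNA, and PRDM4, at 61.9 and 60.4. Of 12 further demethylases, 8 were marked in both and 1, RIOX2 at 9.55, in control only. KDM4D, at 80.5 and 40.6, and RIOX1, at 73.9 and 62.0, led them.

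Partner subunits of these enzymes, such as WDR5 of the H3K4 complexes and EED and SUZ12 of PRC2, numbered 38. Of these, 25 had a peak in both lists. HCFC2 at 19.9, CBX1 at 11.3, CBX3 at 3.58 and CBX5 at 5.10 were in control only, and WIZ at 14.6 in DF2 siRNA only. PHF21A, a subunit of the KDM1A complex, stood at 84.9 and 72.2, and AEBP2, a subunit of PRC2, at 76.2 and 111. Among PRC2 subunits, EED, SUZ12, RBBP7, JARID2, MTF2 and AEBP2 had peaks in both lists, and RBBP4, PHF1 and PHF19 had none listed, as for EZH2.

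Among 29 histone acetyltransferases and deacetylases, 16 had a peak in both lists. HAT1 at 13.4 and SIRT5 at 26.6 were in control only, and HDAC5 at 8.85 and HDAC8 at 9.26 in DF2 siRNA only. The highest in control were the MYST acetyltransferases KAT6A, at 167 in control and 60.1 in DF2 siRNA, and KAT6B, at 150.4 and 51.0. CREBBP, the CBP acetyltransferase, stood at 94.3 and 126, whereas EP300 stood at 113 and 79.2. Of 9 arginine methyltransferases, 5 were marked in both, led by PRMT9 at 86.2 and 34.7 and PRMT6 at 36.1 and 58.9, and PRMT5 at 8.02 in control only.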

How the data were processed

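Cytoplasmic RNA of U2OS cells was sequenced as input and as m6A immunoprecipitate. The submitters' processing notes name HISAT2 and hg38, and the peak caller, settings, annotation, filters and strand use were not given in the sources used here. For each condition the authors deposited 1 peak list, in which the score is a whole number from 3 upwards whose meaning is unstated. Fold enrichment is the authors' ratio for each peak, with its reference unstated. Per the file headers, −log10 values are of p-values for control and of FDRs for DF2 siRNA, with a minimum of 1.30 in either list. Depth is unknown, and all these values move with it.

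Members were found by current or older symbol. Overlap was at least 1 shared exonic base on the same strand, and abutting blocks were joined into unbroken runs. The first label of a peak with several was stop codon, else 3′ UTR, else coding, else 5′ UTR, else non-coding RNA. RefSeq spans and sequences are of GRCh38.p14. Intervals are 95% exact binomial (Clopper-Pearson). The overlap counting was tested by moving a random share of the control peaks away and setting them against the unmoved control list. Partly overlapping peaks were not covered by this test. Python 3.11.15, pandas 2.3.3, numpy 2.4.6, scipy 1.17.1 and matplotlib 3.10.9 were used.

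Named in full were members with a peak in 1 list only or with numbers of peaks differing by 2 or more. So were the 6 highest per list and the 5 whose best peak moved most in percentile each way. The 4 with the longest peaks and the extremes of each role group were included too. KMT2C and SETD2 were described in detail outside these rules. Of the other lists, the genes in 1 list only and the highest 2 were named. CREBBP, EP300, WDR5, EED, SUZ12, RBBP4, RBBP7, JARID2, MTF2, PHF1 and PHF19 were named after their values were seen. Alternatives were equal list lengths, stricter limits, a score floor, other overlap rules, current symbols only, at least 2 peaks per gene, merged near peaks, best peak by score, narrow peaks and peaks with 1 label. The members and all lists were chosen with earlier results of these data known. A motif search within peaks was planned and, beyond the windows at RefSeq starts, not run, since no genome was used.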

Additional observations from a re-analysis of the deposited data

How the results depend on the processing

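Of 109 values of 17 results under 14 alternatives, 90 stayed close to the reported value and 19 moved: shares and median percentiles beyond the 95% binomial interval of the reported value, counts by over 1.5 times. Genes in control only, 1 as reported, numbered 4 in the upper 50% of each list by fold enrichment, 4 with at least 2 peaks per gene, 2 with a p-value or FDR 100 times smaller and 0 at equal list lengths. Genes in DF2 siRNA only, 1 as reported, numbered 0 at the smaller p-value or FDR and 2 at equal list lengths. With a reciprocal overlap of 50%, 68.3% of the members' control peaks had a counterpart, against 61.0% of all control peaks. For DF2 siRNA peaks the share was 72.4%, against 72.6% of all. In the upper 50%, 62 DF2 siRNA peaks were left, and the median percentile of the best peaks, taken anew within that part of each list, was 75.9 for control and 67.9 for DF2 siRNA. In narrow peaks, 400 nt at most, stop codon labels made up 33.3% in control, against 22.5% of all such peaks. In DF2 siRNA they made up 16%, against 25.02%, so the members stood above all peaks in control and below them in DF2 siRNA. Coding labels made up 14.3% of narrow control peaks, against 16.6%, so the higher coding share of the members was not seen in these. In DF2 siRNA the coding share of narrow peaks stayed close to the reported value, at 24%, against 21.1%. Among peaks with 1 label only, the stop codon share was 0 in both lists, against 0.0301% and 0.0564% of all such peaks. The stop codon label hardly ever stands alone, so this value says nothing about the members. The coding share was 57.8% in control, against 18.0% of all such peaks, and 55.8% in DF2 siRNA, against 23.6%. The share of members with at least 4 DF2 siRNA peaks was 16.7% at the smaller FDR, against 1.37% of all genes. The cause of these shifts was not tested, and fewer peaks enter each stricter setting. Leaving out member peaks beyond the RefSeq gene, chosen after the data were seen, moved none of these 17 results, but it lowered the best control peak of SETD7 from 98.1 to 48.5 and of SETD1A from 60.9 to 40.7.

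No paired analysis was possible because peaks are given per condition and not per library, and leaving out a replicate was not run for the same reason. Limits on the −log10 value differ between the lists, as p-value and FDR are different quantities. The unknown depth of the libraries sets which peaks were detectable.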
